A study of Homo sapiens with 22 samples.

Results

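Amino acid transporters are the membrane proteins through which a cell takes up, exchanges and releases amino acids. Here 10 genes for such transporters at the plasma membrane were followed in 2 acute myeloid leukemia (AML) cell lines: SLC3A2, SLC7A5, SLC7A11, SLC7A1, SLC1A5, SLC1A4, SLC38A1, SLC38A2, SLC6A9 and SLC43A1. They were picked by symbol, with earlier results of these data known, and all 10 were found among the 20411 protein-coding genes in the RNA-seq table of each line. The other gene lists below were chosen in the same way, so the shares of all genes set beside their counts describe them and do not test them. MOLM-13 cells, a line with an MLL fusion and an internal tandem duplication in FLT3, and NB4 cells, an acute promyelocytic leukemia line, received 2 μM FP54 or the solvent DMSO for 48 hours in RPMI-1640 medium with 10% serum. FP54 is a proteolysis-targeting chimera that joins a binder of the RNA demethylase FTO to a ligand of the VHL ubiquitin ligase, so that FTO protein is degraded. All samples were labelled as wild type, and there were 3 libraries per treatment and line, which are named by treatment and replicate number below. The other 10 of the 22 samples, m6A-seq and polysome-seq, were not analysed here.

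Several of these carriers work together. SLC3A2 (CD98) is a heavy chain that carries no amino acid itself and brings light chains such as SLC7A5 and SLC7A11 to the cell surface. SLC7A5 (LAT1) brings in leucine and other large neutral amino acids in exchange for glutamine, which SLC1A5 and the sodium-coupled carriers SLC38A1 and SLC38A2 supply. SLC7A11 (xCT) exchanges internal glutamate for cystine, the source of cysteine for glutathione. When amino acids run short or the endoplasmic reticulum is stressed, translation of the transcription factor ATF4 increases, and many genes for transporters and for amino acid synthesis are known ATF4 targets. MYC is known to drive SLC7A5 and SLC1A5, and NRF2 (NFE2L2) to drive SLC7A11.

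The genes lie on several chromosomes, given here on hg38 from GENCODE gene spans, and reads over their annotated exons were counted. SLC3A2 lies on chromosome 11 from 62856004 to 62888880, SLC43A1 on the same chromosome from 57484534 to 57515780, and SLC7A5 on chromosome 16 from 87830023 to 87869507. SLC7A11 spans chromosome 4 from 138164097 to 138242349, and SLC7A1 chromosome 13 from 29509414 to 29595688. SLC1A5 spans chromosome 19 from 46774883 to 46788594 and SLC1A4 chromosome 2 from 64988477 to 65023865. SLC38A1 and SLC38A2 are neighbors on chromosome 12, from 46183063 to 46270017 and from 46358188 to 46372773. SLC6A9 lies on chromosome 1 from 43991500 to 44031467.

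The 250 bases upstream of the RefSeq start (GRCh38.p14) were searched on both strands in 9 of the 10 genes, to see which letters known for ATF4, NRF2 and MYC stand there; the promoter of SLC7A11 was not analysed. TGATGNAA, the form of the amino acid response element, was in 0 of the 9 windows and in 3.19% of all 27305 promoters. TGACNNNGC, the core of the antioxidant response element, was in 2 of the 9 (SLC3A2 and SLC7A1) and in 11.03% of all. CACGTG, the E box, was in 2 of the 9 (SLC7A5 and SLC43A1) and in 6.49% of all. The matched stretches are printed 5′ to 3′ along the gene, with the match in capitals, because they are the only places in these windows where the searched letters stand. The match of SLC3A2, from −37 to −29, also holds TGACTCA, the letters of an AP-1 site, and no other match overlapped another searched motif.
SLC3A2 (chr11:62881622-62881695, plus strand): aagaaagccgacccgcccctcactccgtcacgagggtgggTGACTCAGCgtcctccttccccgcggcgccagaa
SLC7A1 (chr13:29595740-29595813, minus strand): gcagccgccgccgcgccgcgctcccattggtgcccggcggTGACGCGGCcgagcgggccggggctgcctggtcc
SLC7A5 (chr16:87869607-87869677, minus strand): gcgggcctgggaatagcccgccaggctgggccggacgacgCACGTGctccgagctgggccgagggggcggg
SLC43A1 (chr11:57515784-57515854, minus strand): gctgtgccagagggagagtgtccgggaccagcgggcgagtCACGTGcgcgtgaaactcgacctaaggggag
The printed stretches touch no annotated exon; that of SLC3A2 lies within the GENCODE gene span, before a start further along the gene. A match of letters is not a measured binding site, and the same letters beyond these windows were not searched.

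Expression is given as RPKM, read numbers scaled by exon length and library total, as deposited. The library totals implied by the RPKM were 16299694 to 17346910 reads in MOLM-13 DMSO libraries, 5829741 to 19191051 in MOLM-13 FP54 libraries, 20654085 to 22344298 in NB4 DMSO libraries and 10595657 to 13071329 in NB4 FP54 libraries. The MOLM-13 table had higher FLT3 (51.1 to 91.8 RPKM against 4.46 to 6.04), HOXA9, MEIS1 and PBX3 but lower HOXA10 (6.64 to 9.76 RPKM against 11.3 to 14.1) than the NB4 table, and the NB4 table had higher MPO (1082 to 2263 RPKM against 3.29 to 18.1), while the granule genes ELANE, PRTN3 and AZU1 were higher in the MOLM-13 table and ELANE was at 0 to 0.218 RPKM in NB4. Of the markers of other cell types, EPCAM was at 7.83 to 11.3 RPKM in NB4 and the rest were below 1 RPKM in both lines. FTO mRNA was at 1.01 ± 0.0767 and 1.01 ± 0.118 RPKM (SD, n = 3) with DMSO and FP54 in MOLM-13, and at 2.73 ± 0.180 and 2.03 ± 0.0782 RPKM (SD, n = 3) in NB4, which does not measure the protein that FP54 removes. A gene was tested where its mean RPKM over the 6 libraries of a line was at least 1, which 9710 genes in MOLM-13 and 9853 in NB4 passed. SLC6A9 did not pass in either line, so 9 of the 10 transporters were tested. A gene was called where its log2 fold change reached 0.5 in size with an unadjusted limma p below 0.01, and Benjamini-Hochberg adjusted p-values over all genes tested are given beside the calls, with the standard error (SE) of the fitted change. The labels do not say whether the libraries of a group came from separate cultures, so p-values measure the spread between these libraries, which may be technical. In bulk RNA, fewer cells with a transcript and less of it per cell cannot be told apart.

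With FP54, most of the tested transporters moved in opposite directions in the 2 lines. In MOLM-13, 5 of the 9 tested were called lower (SLC7A1, SLC7A5, SLC38A1, SLC1A4 and SLC38A2), beside 9.04% of all genes tested, and 0 were called higher, beside 9.30%. In NB4, 8 of the 9 were called higher, beside 18.6% of all genes tested, and 0 were called lower, beside 10.7%; the ninth, SLC43A1, rose by less than the minimum fold change. The median log2 fold change of the 9 was −0.69 in MOLM-13, where the median of all genes was 0.0033, and 0.78 in NB4, where it was 0.070. The 5 genes called lower in MOLM-13 were all called higher in NB4, a combination seen in 0.768% of the 8849 genes tested in both lines. At an unadjusted p below 0.05, limma gave 0 of the 9 higher in MOLM-13 and 0 of the 9 lower in NB4. SLC7A11 in MOLM-13 passed that cutoff upward in some alternatives. Its log2 fold changes there were 0.41 with limma-voom on read numbers, 0.36 with quantile normalization and 0.44 without FP54 replicate 2. By the rule for calls, limma-voom also gave 0 higher in MOLM-13 and 0 lower in NB4. The share of all genes at the 0.05 cutoff was not counted.

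**Figure D1:**
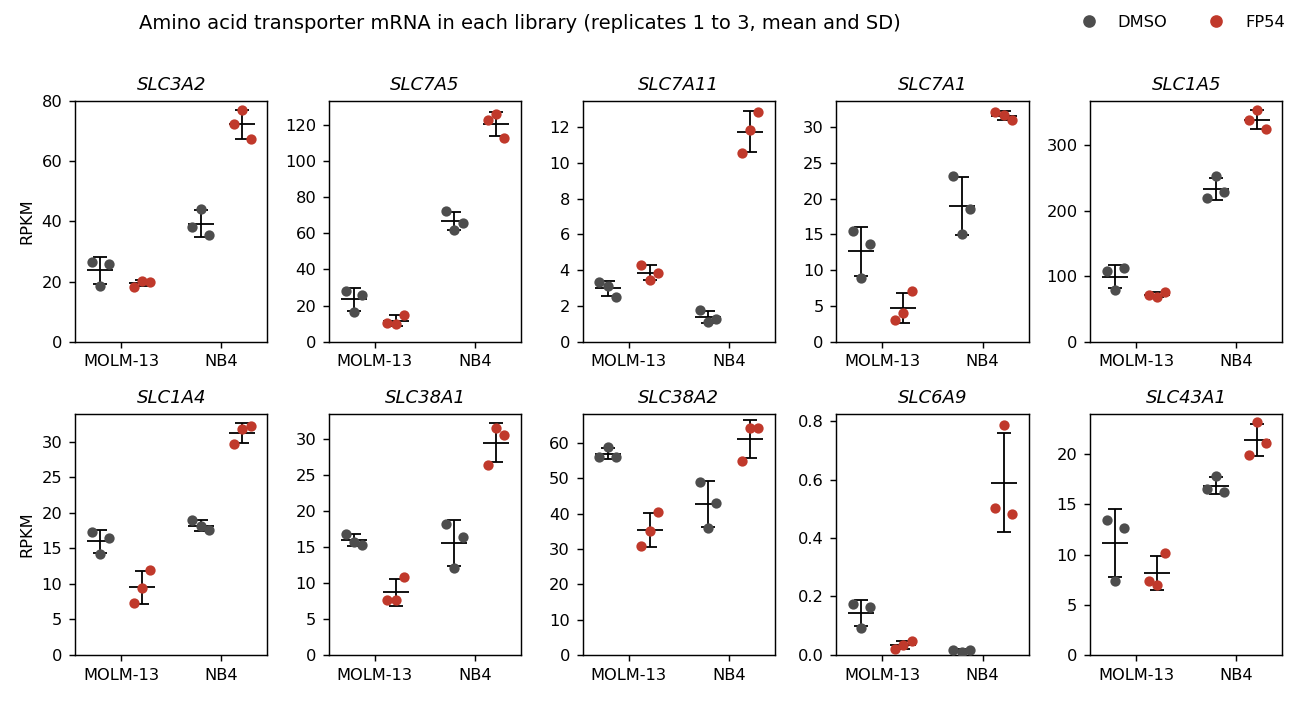
RPKM of the 10 transporters in each library of MOLM-13 and NB4 cells with DMSO (gray) or FP54 (red); points are libraries, horizontal lines are means and bars are SD (n = 3), and each panel has its own axis from 0. In NB4 the FP54 points lie above all DMSO points in every panel, while in MOLM-13 the FP54 points of 7 genes lie below all DMSO points, with SLC6A9 among them.

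SLC3A2, the shared heavy chain, was called in NB4 and not in MOLM-13. In MOLM-13 its RPKM was 26.7, 18.6 and 26.0 in DMSO replicates 1 to 3 and 18.3, 20.4 and 19.9 in FP54 replicates 1 to 3. The groups overlapped through DMSO replicate 2, and the log2 fold change was −0.27 (SE 0.16, limma adjusted p = 0.272). Without DMSO replicate 2 it was −0.43 (limma adjusted p = 0.0517) and without DMSO replicate 1 it was −0.17 (limma adjusted p = 0.616), not called in either. In NB4 it was 38.1, 44.1 and 35.5 RPKM with DMSO and 72.5, 77.1 and 67.4 RPKM with FP54. Every FP54 library was higher, and SLC3A2 rose by 0.88 on the log2 scale (SE 0.098, limma adjusted p = 4.55e-05).

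SLC7A5, the light chain for leucine and other large neutral amino acids, fell in MOLM-13 and rose in NB4. In MOLM-13 it was at 28.2, 16.3 and 25.7 RPKM with DMSO and at 10.3, 9.72 and 15.0 RPKM with FP54. The groups did not overlap, though DMSO replicate 2 lay just above FP54 replicate 3, and the mean with FP54 was 49.8% of that with DMSO (log2 fold change −0.99, SE 0.23, limma adjusted p = 0.0178). In NB4 it was at 72.3, 62.1 and 66.0 RPKM with DMSO and at 123, 126 and 113 RPKM with FP54. The NB4 groups were well apart, with a log2 fold change of 0.85 (SE 0.087, limma adjusted p = 2.63e-05). Reads that also match the pseudogenes SLC7A5P1 and SLC7A5P2 may be assigned differently by other counting.

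SLC7A11, the cystine-glutamate exchanger, had the largest log2 fold change of the 9 tested transporters in NB4, and in MOLM-13 it was the one with a positive value. In NB4 it was at 1.76, 1.11 and 1.26 RPKM with DMSO and at 10.5, 11.8 and 12.8 RPKM with FP54, an 8.51-fold ratio of means. Each FP54 library was several times the highest DMSO library, and the log2 fold change was 3.02 (SE 0.16, limma adjusted p = 3.17e-07). In MOLM-13 it was at 3.33, 3.10 and 2.50 RPKM with DMSO and at 4.28, 3.45 and 3.84 RPKM with FP54. All 3 FP54 values were above the DMSO values, by a narrow margin, and the log2 fold change of 0.37 (SE 0.18, limma adjusted p = 0.166) did not pass. SLC7A11 was on 194 to 793 reads in the MOLM-13 libraries and 229 to 1616 in the NB4 libraries.

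SLC7A1, the carrier of arginine and lysine, had the largest decrease of the 9 in MOLM-13. It was at 15.5, 8.86 and 13.7 RPKM with DMSO and at 3.02, 4.08 and 7.10 RPKM with FP54. The lowest DMSO library was above the highest FP54 library, and the mean with FP54 was 37.4% of that with DMSO (log2 fold change −1.45, SE 0.30, limma adjusted p = 0.0111). In NB4 it was at 23.2, 15.1 and 18.6 RPKM with DMSO and at 32.1, 31.7 and 30.9 RPKM with FP54. The FP54 libraries were close to each other and all higher, with a log2 fold change of 0.76 (SE 0.13, limma adjusted p = 0.000917).

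SLC1A5 and SLC1A4 are sodium-dependent exchangers of small neutral amino acids, and SLC1A5 also takes up glutamine. SLC1A5 was the most abundant of the 10 in every group, at 107, 78.9 and 112 RPKM with DMSO and 71.4, 68.7 and 75.3 RPKM with FP54 in MOLM-13. Its MOLM-13 groups did not overlap, but the log2 fold change of −0.45 (SE 0.16, limma adjusted p = 0.0679) did not pass. In NB4 SLC1A5 was at 220, 252 and 228 RPKM with DMSO and at 338, 353 and 324 RPKM with FP54. It rose by 0.54 on the log2 scale (SE 0.085, limma adjusted p = 0.000458), just past the minimum fold change. SLC1A4 fell in MOLM-13 from 17.3, 14.2 and 16.4 RPKM to 7.32, 9.34 and 11.9 RPKM (log2 fold change −0.76, SE 0.19, limma adjusted p = 0.0207). In NB4 SLC1A4 rose from 19.0, 18.1 and 17.5 RPKM to 29.6, 31.8 and 32.2 RPKM (log2 fold change 0.78, SE 0.081, limma adjusted p = 3.16e-05). Neither pair of SLC1A4 groups overlapped.

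SLC38A1 and SLC38A2 are the system A carriers, which couple uptake of glutamine and alanine to sodium. In MOLM-13 SLC38A1 was at 16.8, 15.7 and 15.2 RPKM with DMSO and at 7.60, 7.55 and 10.8 RPKM with FP54. SLC38A2 was at 56.2, 58.9 and 56.0 RPKM with DMSO and at 30.8, 35.1 and 40.4 RPKM with FP54. The DMSO libraries of both genes lay close together and clear of the FP54 libraries, and both fell, by 0.89 and 0.69 on the log2 scale (SE 0.17 and 0.14, limma adjusted p = 0.00845 and 0.0103). In NB4 SLC38A1 was at 18.2, 12.01 and 16.4 RPKM with DMSO and at 26.4, 31.5 and 30.5 RPKM with FP54. SLC38A2 there was at 49.0, 36.0 and 42.9 RPKM with DMSO and at 55.0, 64.2 and 64.3 RPKM with FP54. Both rose with no overlap, by 0.93 and 0.53 (SE 0.14 and 0.12, limma adjusted p = 0.000379 and 0.00352).

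SLC43A1 (LAT3) is a facilitative carrier of leucine and other large neutral amino acids that needs no heavy chain. In MOLM-13 it was at 13.5, 7.33 and 12.7 RPKM with DMSO and at 7.33, 7.01 and 10.2 RPKM with FP54. DMSO replicate 2 lay among the FP54 values, and the log2 fold change of −0.42 (SE 0.24, limma adjusted p = 0.242) did not pass. In NB4 it was at 16.6, 17.8 and 16.2 RPKM with DMSO and at 19.9, 23.2 and 21.2 RPKM with FP54. All FP54 libraries were higher, and the log2 fold change of 0.34 (SE 0.090, limma adjusted p = 0.00868) passed the adjusted p but not the minimum fold change.

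SLC6A9 (GlyT1), a sodium-coupled glycine carrier, was on 15 reads or fewer in every library except those of NB4 cells with FP54. In NB4 it was at 0.0184, 0.00894 and 0.0171 RPKM with DMSO, on 2, 1 and 2 reads, and at 0.503, 0.786 and 0.481 RPKM with FP54, on 28, 48 and 33 reads. The summed reads per library total were 39.7 times those with DMSO (exact 95% interval 16.5 to 125, for counting error only). In MOLM-13 it was at 0.173, 0.0935 and 0.165 RPKM with DMSO, on 15, 8 and 15 reads, and at 0.0199, 0.0327 and 0.0475 RPKM with FP54, on 2, 1 and 3 reads. The reads with FP54 were 0.214 times those with DMSO per library total (exact 95% interval 0.0739 to 0.510). The groups were apart in both lines, in opposite directions.

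Fitted with no filter on low values, SLC6A9 had a log2 fold change of 2.56 in NB4 (limma adjusted p = 5.74e-05) and −0.86 in MOLM-13 (limma adjusted p = 0.0320), values that depend on the pseudocount. In those fits 27.9% of 17790 genes were called higher in NB4 and 5.53% of 16288 were called lower in MOLM-13. The NB4 FP54 libraries also had a higher level of genes that are silent in blood cells: 416 olfactory receptor genes averaged 0.0496 to 0.0549 RPKM with FP54 and 0.00168 to 0.00372 RPKM with DMSO. With that level subtracted, SLC6A9 averaged 0.538 RPKM in NB4 with FP54. Of the 8611 genes with an NB4 DMSO mean of at most 0.1 RPKM, 203 (2.36%) had an FP54 mean at least as high as that of SLC6A9, and the median FP54 mean of all 8611 was 0.0256 RPKM. CCDC24, on the opposite strand, shares 413 of the 5249 exon bases of SLC6A9 and was at 0.459 ± 0.129 and 0.860 ± 0.121 RPKM (SD, n = 3) with DMSO and FP54 in NB4. The strand setting of the counting is not given in the sources used here, and the part of these 2 levels in the SLC6A9 result was not tested. The subtraction takes the same mean level from every gene and cannot show the background of SLC6A9 itself. Noncoding genes on the opposite strand also share 780 of the 3332 exon bases of SLC1A5, 865 of 9645 of SLC7A11 and 271 of 4764 of SLC7A5. The part of reads from them in the levels of these transporters was not tested.

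Without overlap between groups, 6 of the 9 tested transporters were lower in MOLM-13, beside 17.0% of all genes tested, and 1 (SLC7A11) was higher, beside 20.2%. In NB4 all 9 tested were higher without overlap, beside 34.3% of all genes tested, and 0 were lower, beside 26.2%. DMSO replicate 2 of MOLM-13 had the lowest DMSO value for 7 of the 10 transporters, and its MYC level was 28.6% of the mean of the other 2. DMSO replicate 2 of NB4 was likewise the lowest for SLC7A5, SLC7A11, SLC7A1, SLC38A1, SLC38A2 and SLC6A9, with MYC at 110%. How often these libraries were the lowest over all genes was not counted. Without DMSO replicate 2 of MOLM-13, 7 of the 9 transporters were called lower in that line, with SLC1A5 (log2 fold change −0.61, limma adjusted p = 0.0161) and SLC43A1 (−0.69, limma adjusted p = 0.0300) added. In that fit 1213 of all 9747 genes tested were called lower, against 878 of 9710 with all libraries. The 5 calls in MOLM-13 held with each other library left out, but the number past the adjusted p fell from 5 to 3 without DMSO replicate 1 or 3 (SLC7A1, SLC38A1 and SLC38A2) and to 1 without FP54 replicate 1 (SLC38A1). In NB4, other scaling of the libraries moved the median of all genes by −0.20 (median-ratio) or −0.10 (quantile), and the share of calls that were higher went from 63.6% to 37.1% or 48.4%. All 9 transporters kept a positive log2 fold change in NB4 under both, and 6 and 8 were called higher. Of all 9853 genes tested, 1184 and 1281 were called higher under these scalings. SLC1A5 (0.34) and SLC38A2 (0.33) lost their calls under median-ratio scaling, where SLC43A1 was at 0.14 (limma adjusted p = 0.229).

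**Figure D2:**
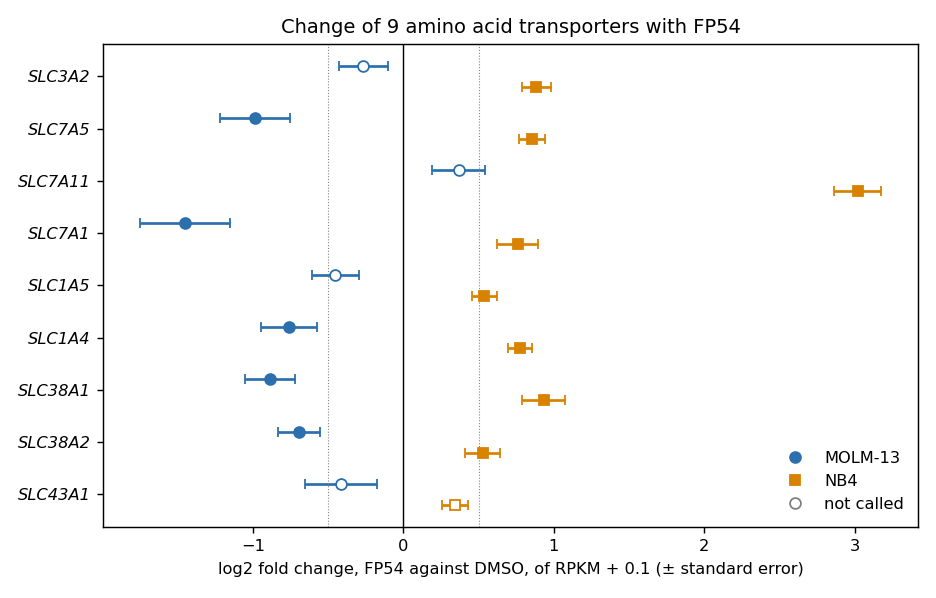
Log2 fold change of RPKM + 0.1, FP54 against DMSO, for the 9 tested transporters in MOLM-13 (blue circles) and NB4 (orange squares); bars are standard errors from limma, open symbols were not called, and dotted lines mark 0.5 in either direction. The 9 NB4 values lie from 0.34 to 3.02 and 8 of the 9 MOLM-13 values lie below 0.

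The difference between the lines was tested with a term for line by treatment, fitted with limma to the 12 libraries at once. For 8 of the 9 transporters the log2 fold change in NB4 exceeded that in MOLM-13 at an adjusted p below 0.05, beside 10.5% of the 8849 genes tested in both lines. The difference was 2.65 for SLC7A11 (SE 0.24, limma adjusted p = 5.18e-06) and 2.21 for SLC7A1 (SE 0.37, limma adjusted p = 0.00100). It was 0.99 for SLC1A5 (SE 0.18, limma adjusted p = 0.00220), the smallest that passed. SLC43A1 differed by 0.76 (SE 0.28, limma adjusted p = 0.0868) and did not pass. Among the alternatives it did not pass in 15 and passed in 2. These 2 were the fit without DMSO replicate 2 of both lines (1.07, limma adjusted p = 0.00588) and quantile normalization (0.81, limma adjusted p = 0.0401).

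The order of levels was partly shared by the lines. In MOLM-13 with DMSO, SLC1A5 (99.4 ± 18.0 RPKM, SD, n = 3) was followed by SLC38A2 (57.0 ± 1.62 RPKM), and the ranges of SLC3A2, SLC7A5, SLC1A4, SLC38A1, SLC7A1 and SLC43A1 each overlapped the next. SLC7A11 (2.98 ± 0.425 RPKM) and SLC6A9 (0.144 ± 0.0436 RPKM) lay below these. With FP54 the MOLM-13 order of the first 6 was the same, and SLC7A1 went from the seventh to the eighth place, where its range overlapped those of SLC43A1 and SLC7A11. In NB4 with DMSO, SLC7A5 (66.8 ± 5.15 RPKM) came second, after SLC1A5 (233 ± 17.0 RPKM), and SLC38A2 and SLC3A2 overlapped. SLC7A1, SLC1A4, SLC43A1 and SLC38A1 followed, with overlapping ranges of neighbors, and SLC7A11 (1.38 ± 0.340 RPKM) was ninth. With FP54 SLC3A2 (72.3 ± 4.87 RPKM) stood above SLC38A2 (61.2 ± 5.31 RPKM) without overlap. The summed RPKM of the 10 genes went from 262 ± 35.2 to 173 ± 18.4 (SD, n = 3) in MOLM-13 and from 453 ± 9.32 to 719 ± 29.1 (SD, n = 3) in NB4, both with no overlap (two-sided exact permutation p = 0.1 each). With 3 libraries against 3, 0.1 is the smallest p this test can give. The 2 tables were not scaled together, so levels were not tested between lines.

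The share of SLC7A11 in the sum of SLC7A5 and SLC7A11, with no other light chain counted, was higher in every FP54 library of both lines. In MOLM-13, SLC7A5 per SLC3A2 was 1.06, 0.876 and 0.990 with DMSO and 0.561, 0.477 and 0.757 with FP54. The FP54 ratios were all lower, with means of 0.975 ± 0.0924 and 0.598 ± 0.143 (SD, n = 3, exact permutation p = 0.1). In NB4 the 2 genes rose together and the ratio was 1.72 ± 0.272 with DMSO and 1.67 ± 0.0275 with FP54 (SD, n = 3, exact permutation p = 1.0). SLC7A11 as a share of the summed RPKM of SLC7A5 and SLC7A11 was 10.5%, 16.0% and 8.87% with DMSO and 29.4%, 26.2% and 20.4% with FP54 in MOLM-13. In NB4 the share was 2.38%, 1.76% and 1.87% with DMSO and 7.91%, 8.56% and 10.2% with FP54. The groups were apart in both lines (exact permutation p = 0.1 each), while SLC7A5 itself fell in one line and rose in the other. Among the other pairs, SLC38A2 per SLC38A1 was 2.77 ± 0.205 with DMSO and 2.08 ± 0.0350 with FP54 in NB4 (SD, n = 3, exact permutation p = 0.1), and 3.59 ± 0.219 and 4.15 ± 0.458 in MOLM-13 (SD, n = 3, exact permutation p = 0.2). SLC1A5 per SLC1A4 was 12.8 ± 1.19 and 10.9 ± 0.708 in NB4 (SD, n = 3, exact permutation p = 0.1), and 6.19 ± 0.636 and 7.81 ± 1.77 in MOLM-13 (SD, n = 3, exact permutation p = 0.2). Of the 12 tests of ratios and sums, none could pass 0.05 by design.

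**Figure D3:**
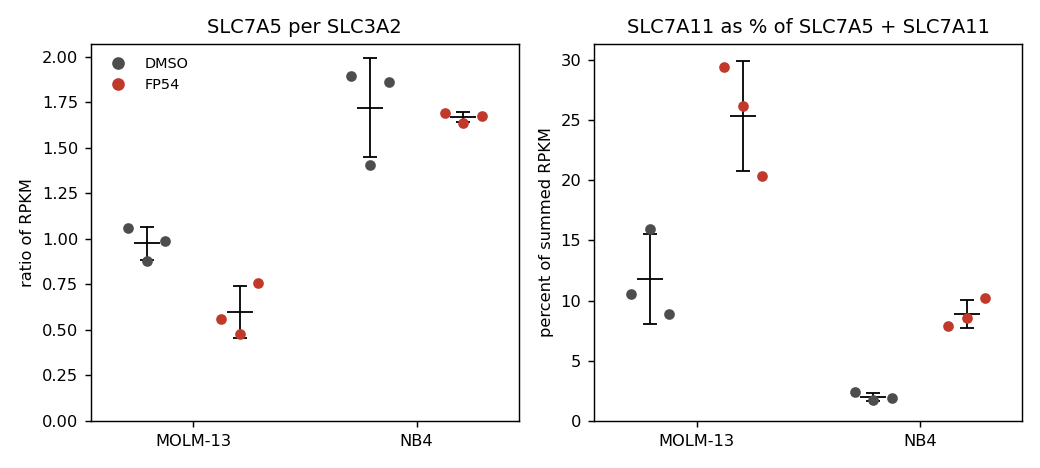
Left, ratio of SLC7A5 to SLC3A2 RPKM; right, SLC7A11 as a percentage of the summed RPKM of SLC7A5 and SLC7A11, in each library with DMSO (gray) or FP54 (red), with mean and SD (n = 3). The SLC7A11 share is higher with FP54 in both lines, from 11.8% to 25.3% in MOLM-13 and from 2.00% to 8.89% in NB4, while the mean SLC7A5 ratio is 0.975 and 0.598 in MOLM-13 and 1.72 and 1.67 in NB4.

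The likeness of expression patterns was described by Pearson's r of log2(RPKM + 0.1) over the 12 libraries after removing the mean of each line. The points share the treatment and their libraries' depths, and no test was made. In 3 pairs each gene was the member most like the other: SLC38A1 and SLC38A2 (r = 0.975), SLC7A5 and SLC7A1 (r = 0.953), and SLC3A2 and SLC6A9 (r = 0.948). Outside the NB4 FP54 libraries SLC6A9 was on 15 reads or fewer, so its r depends on the pseudocount. SLC1A4 was most like SLC7A5 (r = 0.950). SLC7A11 was the least alike for 7 of the other 9, with r from 0.315 (SLC7A1) to 0.617 (SLC38A1). Outside the 10, the genes most like SLC7A5 were CTH (r = 0.973), which releases cysteine from cystathionine, CEBPG (r = 0.972), a dimer partner of ATF4, and GOT1 (r = 0.971), the cytosolic aspartate aminotransferase, followed by ACSS1 and PLOD3 (both r = 0.964). The genes most like SLC7A11 were the lectin gene SIGLEC6 (r = 0.992), ALOX5AP (r = 0.989), which serves leukotriene synthesis, TM6SF1 (r = 0.989) and the enolase gene ENO2 (r = 0.986). These 4 were picked for likeness to SLC7A11 over libraries of both treatments, so a rise in NB4 follows from that choice. They were called higher in NB4, beside 18.6% of all genes tested, with log2 fold changes from 3.21 (ENO2) to 3.67 (SIGLEC6). In MOLM-13 SIGLEC6 (0.63) and ALOX5AP (0.79) were called higher, beside 9.30% of all genes tested.

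Of the 33 other plasma membrane amino acid transporters on a separate list, 7 were tested in MOLM-13 and 5 in NB4, the rest being below the filter. In MOLM-13, 3 were called lower and 1 higher, and in NB4, 2 were called lower and 0 higher, where 1 passed an unadjusted p below 0.05 upward. All genes tested were called lower and higher in 9.04% and 9.30% of cases in MOLM-13 and in 10.7% and 18.6% in NB4. The gene higher at that p was SLC6A6, the taurine carrier, with log2 fold changes of −0.49 in MOLM-13 and 0.48 in NB4, not called in either and without overlap in both. The interaction was positive for 2 of the 5 tested in both lines, SLC6A6 (0.96, limma adjusted p = 0.00490) and SLC7A2. SLC7A2, a cationic amino acid carrier like SLC7A1, was at 4.57, 2.66 and 4.51 RPKM with DMSO and at 0.323, 0.890 and 1.19 RPKM with FP54 in MOLM-13. It fell by 2.26 on the log2 scale (limma adjusted p = 0.00543). In NB4 its groups overlapped (0.25, limma adjusted p = 0.0974), and the interaction was 2.51 (limma adjusted p = 0.00157). SLC38A5, a glutamine and glycine carrier, fell in both lines, by 1.64 in MOLM-13 and 1.08 in NB4 (limma adjusted p = 0.00397 and 7.76e-06). SLC36A4, a carrier of proline and tryptophan, also fell in both, by 0.84 and 0.55 (limma adjusted p = 0.0125 and 0.00622). SLC43A2 (LAT4), the relative of SLC43A1, rose in MOLM-13 from 0.761 ± 0.0826 to 2.17 ± 0.595 RPKM (SD, n = 3, limma adjusted p = 0.00560), and in NB4, below the filter, was at 0.319 ± 0.0529 and 0.841 ± 0.116 RPKM (SD, n = 3). The median log2 fold changes of the tested genes of this list were −0.49 in MOLM-13 and −0.17 in NB4. Below the filter in NB4, SLC7A3 and SLC38A6 had lower means with FP54, and SLC6A14, SLC6A18, SLC6A19 and SLC7A13 were at 0 RPKM. The rest there had higher means with FP54, as SLC6A9 did. SLC1A6 was at 0.0741 ± 0.0441 RPKM with DMSO and at 0.729 ± 0.112 RPKM with FP54 (SD, n = 3).

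Of 23 mitochondrial and lysosomal amino acid transporters, 16 were tested in MOLM-13, with 4 called higher and 1 lower (median −0.0037), and 19 in NB4, with 3 called higher and 0 lower (median 0.056). All genes tested were called higher and lower in 9.30% and 9.04% of cases in MOLM-13 and in 18.6% and 10.7% in NB4, so the counts of 1 lower in MOLM-13 and of 3 higher and 0 lower in NB4 were below those shares. At an unadjusted limma p below 0.05, 5 of the list were higher and 4 lower in NB4, and 5 were higher and 2 lower in MOLM-13. The share of all genes at that p was not counted. SLC25A29, a mitochondrial carrier of basic amino acids, rose in both lines, by 1.26 in MOLM-13 and 1.00 in NB4 (limma adjusted p = 0.00518 and 4.76e-05). SFXN4, a sideroflexin, fell in MOLM-13 (−1.04, limma adjusted p = 0.0110) and was at −0.30 in NB4, where SFXN3 (1.58, limma adjusted p = 1.47e-05) and SFXN5 (0.62, limma adjusted p = 0.00150) rose. The lysosomal carriers SLC36A1 (0.83) and SLC15A3 (0.86) rose in MOLM-13 (limma adjusted p = 0.0172 and 0.0201). The interaction was positive at an adjusted p below 0.05 for 1 of the 15 tested in both lines, SFXN3, beside 10.5% of all genes.

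Of 24 amino acid response genes, which are known to be induced with the transporters when amino acids are short, all 24 were tested in MOLM-13, with 11 called lower and 1 higher (median −0.67), beside 9.04% and 9.30% of all genes tested. In NB4, 18 of 23 tested were called higher and 1 lower (median 1.50), beside 18.6% and 10.7%. The interaction was positive for 21 of the 23 at an adjusted p below 0.05, beside 10.5% of all genes tested in both lines. STC2, a secreted glycoprotein hormone, went from 15.1 ± 2.93 to 3.41 ± 0.894 RPKM (SD, n = 3) in MOLM-13 and from 0.740 ± 0.231 to 13.8 ± 0.271 RPKM (SD, n = 3) in NB4, or −2.13 and 4.09 on the log2 scale (limma adjusted p = 0.00103 and 1.27e-07). PSAT1, an enzyme of serine synthesis, changed by −1.43 and 1.68 (limma adjusted p = 0.0132 and 1.03e-06), and PYCR1, an enzyme of proline synthesis, by −1.22 and 0.90 (limma adjusted p = 0.0281 and 8.55e-05). PSPH, the last enzyme of serine synthesis, fell by 1.16 in MOLM-13 (limma adjusted p = 0.00518) and had a log2 fold change of 0.10 in NB4 (limma adjusted p = 0.288). In NB4 the lipoprotein receptor gene VLDLR rose by 3.39, the transcription factor gene ATF5 by 3.36 and the mTORC1 inhibitor gene DDIT4 by 2.71 (limma adjusted p = 5.03e-08, 1.18e-08 and 1.88e-07). In MOLM-13, VLDLR (−0.027) and DDIT4 (0.11) did not pass, and ATF5 fell by 0.53 (limma adjusted p = 0.0229).

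Of the regulators named above, MYC was called, lower, in NB4. ATF4 was at 381 ± 50.5 and 345 ± 63.9 RPKM (SD, n = 3) with DMSO and FP54 in MOLM-13, and at 229 ± 49.1 and 288 ± 8.14 RPKM (SD, n = 3) in NB4, with overlapping groups in both. Its log2 fold changes were −0.15 (limma adjusted p = 0.571) and 0.35 (limma adjusted p = 0.0421), neither of which was called. MYC fell in NB4 from 133 ± 8.85 to 69.6 ± 5.55 RPKM (SD, n = 3, log2 fold change −0.94, limma adjusted p = 1.62e-05). SLC7A5 and SLC1A5 rose there and had log2 fold changes of −0.99 and −0.45 in MOLM-13, and a link to MYC was not tested. In MOLM-13 MYC was at 56.5, 13.8 and 40.2 RPKM with DMSO and at 5.91, 11.8 and 18.8 RPKM with FP54 (−1.52, limma adjusted p = 0.0567), with overlap through DMSO replicate 2. NFE2L2 was at 8.70 ± 0.712 and 8.73 ± 1.44 RPKM (SD, n = 3) in MOLM-13 and at 7.96 ± 1.22 and 9.68 ± 0.335 RPKM (SD, n = 3) in NB4 (limma adjusted p = 0.983 and 0.0562). Protein levels and the activity of these factors were not measured in these files.

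**Figure D4:**
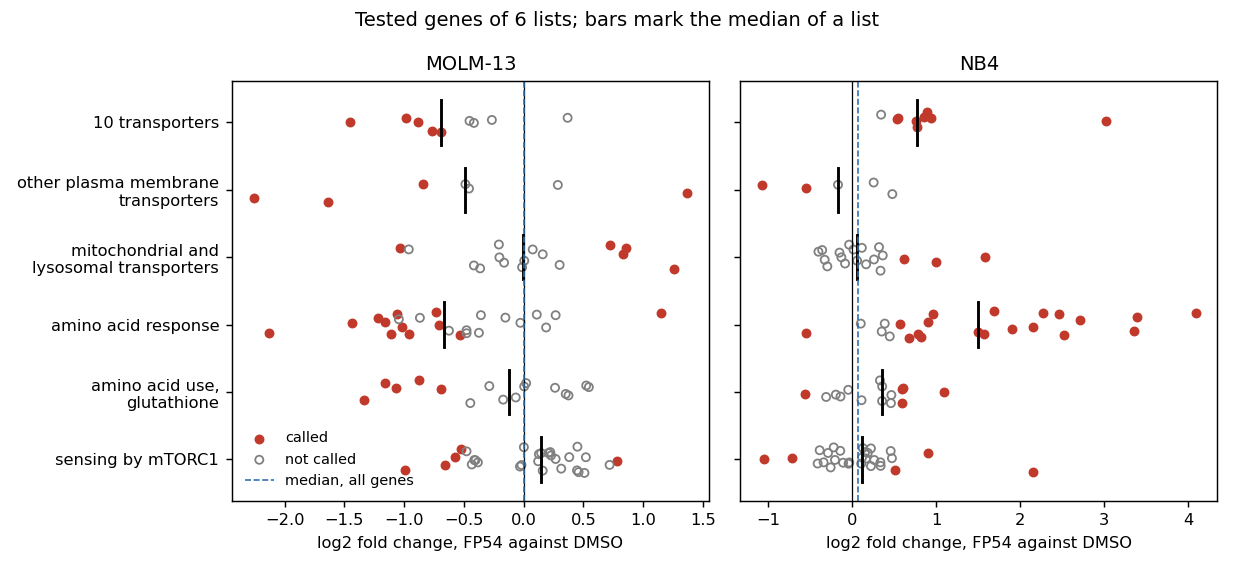
Log2 fold change, FP54 against DMSO, of every tested gene on 6 lists in MOLM-13 (left) and NB4 (right); filled points were called, open points were not, black bars are list medians and the dashed line is the median of all genes tested. The 9 tested of the 10 transporters and the tested amino acid response genes have medians of −0.69 and −0.67 in MOLM-13 and of 0.78 and 1.50 in NB4.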

How the data were processed

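Poly(A) RNA was selected in 2 rounds and made into libraries with a stranded total RNA kit. According to the authors, reads were trimmed with Cutadapt 4.8, deduplicated with Clumpify, aligned to hg38 with STAR 2.7.11b and counted on protein-coding genes with featureCounts 2.0.3. The authors then deposited RPKM for 20411 genes. The gene lengths and library totals behind the RPKM are not given in the sources used here. With GENCODE exon lengths, found for 20304 genes, 98.56 to 99.28% of low values were whole reads within 0.05 reads. Only its name ties the NB4 table to that line.

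Here log2(RPKM + 0.1) was fitted per cell line with limma 3.58.1 (lmFit, eBayes with trend) in R 4.3.3, for genes whose RPKM averaged 1 or more, with Benjamini-Hochberg adjustment. The cutoff for calls follows the study's methods. Ratios were compared by two-sided exact permutation tests, and other steps used Python 3.11.15. The labels give no batch or date. The fit was tested on simulated data. The members and lists were chosen with earlier results of these data known, from general knowledge and with no database. Genes are named by a rule: the 10 members, up to 4 genes per list and line with the largest fold changes among calls without overlap and past an adjusted p of 0.05, the 5 genes most like SLC7A11 and SLC7A5, and ATF4, MYC, NFE2L2 and FTO (some genes that these rules pick are not reported here); SLC6A6 and the overlapping and marker genes were named outside it. Alternatives were other pseudocounts, filters, scalings, variance models and cutoffs, limma-voom on recovered reads, the replicate number as a block and leaving out each library. Subtracting the mean level of olfactory receptor genes was added after seeing the data.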

Additional observations from a re-analysis of the deposited data

Results flagged for a closer look

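The response to FP54 differed between MOLM-13 and NB4 for 8 transporters by the interaction test (adjusted p below 0.05 from limma). The log2 fold change in NB4 exceeded that in MOLM-13 by 2.65 for SLC7A11, 2.21 for SLC7A1, 1.84 for SLC7A5, 1.82 for SLC38A1, 1.54 for SLC1A4, 1.22 for SLC38A2, 1.15 for SLC3A2 and 0.99 for SLC1A5. Over the alternatives these differences ranged from 2.13 to 2.80 for SLC7A11, from 1.93 to 2.56 for SLC7A1 and from 0.82 to 1.21 for SLC1A5. SLC7A11, SLC3A2 and SLC1A5 were called in NB4 and not in MOLM-13, whereas SLC7A1, SLC7A5, SLC38A1, SLC1A4 and SLC38A2 were called in both lines, in opposite directions. The labels give no batch, so the cell line and any set of libraries processed together cannot be told apart.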

How the results depend on the processing

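The number of the 9 transporters called lower in MOLM-13 was 5, and 5 to 7 with a library left out. Of all genes tested there, 878 of 9710 were called lower, and 462 of 9705 to 1213 of 9747 with a library left out. The number called higher in NB4 was 8, 6 with median-ratio scaling and 7 or 8 with a library left out. Of all genes tested in NB4, 1834 of 9853 were called higher, and 1184 of 9853 with median-ratio scaling. With a library left out it was 1661 of 9793 to 2165 of 9904. The interaction count of 8 was 7 of 8 tested with a filter at a mean RPKM of 5 (SLC7A11 was below it in MOLM-13), 9 with quantile normalization and 9 of 10 with no filter. The 9 tested transporters kept their direction under each alternative in which they were tested (SLC7A11 in MOLM-13 had no value at the filter of 5), and SLC6A9 was fitted with no filter only. SLC38A2 in NB4 fell below the minimum fold change without DMSO replicate 2 (0.41), FP54 replicate 2 (0.49) or FP54 replicate 3 (0.49), and SLC1A5 without DMSO replicate 1 (0.50). The count of other plasma membrane transporters called in NB4, 2, was 1 with a pseudocount of 1 and 1 to 3 with a library left out. It was 11 with no filter, where most of the genes added had a higher mean with FP54. With no filter, 4967 of all 17790 genes were called higher in NB4 and 1092 lower. In MOLM-13 the count of these transporters was 4, and 0 with a filter at a mean RPKM of 5, which removed the called genes. Same-numbered DMSO and FP54 libraries did not deviate together (correlations from −0.26 to −0.058 in MOLM-13 and from −0.14 to 0.12 in NB4). Some differently numbered MOLM-13 libraries did: DMSO replicate 1 with FP54 replicate 3 (0.59), 2 with 1 (0.49) and 3 with 2 (0.47). The other differently numbered MOLM-13 pairs were from −0.46 to −0.27, and those of NB4 from −0.26 to 0.22. A block on the replicate number does not hold those pairs, and a block on them was not tested. With the replicate number as a block, 5 transporters were called lower in MOLM-13, 8 were called higher in NB4 and 8 had an interaction. Depth limits SLC6A9, on at most 15 reads in each MOLM-13 and NB4 DMSO library.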

Other observations

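Of 18 genes of amino acid use and glutathione synthesis, 16 were tested in MOLM-13, with 5 called lower and 0 higher. At an unadjusted p below 0.05 from limma, 6 were lower and 4 higher there. In NB4, 15 were tested, with 4 called higher and 1 lower. Of all genes tested, 9.04% were called lower and 9.30% higher in MOLM-13, and 18.6% higher and 10.7% lower in NB4, near which the NB4 counts of this list stand. The transaminase genes GPT2, GOT1 and GOT2 fell in MOLM-13 by 1.34, 1.07 and 0.88 on the log2 scale (limma adjusted p = 0.00406, 0.0122 and 0.0269), as did ARG2, the mitochondrial arginase, by 1.16 (limma adjusted p = 0.0193). In NB4 GOT1 rose by 0.59 and GOT2 fell by 0.57 (limma adjusted p = 0.000317 and 0.000187). Besides SLC7A11, NB4 cells had higher GCLM, the modifier subunit of the first enzyme of glutathione synthesis, at 3.48 ± 0.639 RPKM with DMSO and 7.52 ± 1.07 RPKM with FP54 (SD, n = 3, limma adjusted p = 0.000193), higher GSR, glutathione reductase (0.60, limma adjusted p = 0.000213), and higher GLUL, glutamine synthetase (0.60, limma adjusted p = 0.000607). In MOLM-13 GCLM (−0.29), GSR (0.021) and GLUL (0.38) were not called.

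Of 33 genes of amino acid sensing by mTORC1, 29 were tested in each line, with 4 called lower and 1 higher in MOLM-13 (beside 9.04% and 9.30% of all genes tested) and 2 lower and 3 higher in NB4 (beside 10.7% and 18.6%), counts near or below those shares. SESN2, whose product senses leucine and restrains mTORC1, rose from 1.16 ± 0.268 to 5.46 ± 0.786 RPKM in NB4 (SD, n = 3, limma adjusted p = 5.68e-06), while its relative SESN3 fell from 3.93 ± 0.820 to 1.81 ± 0.163 RPKM (SD, n = 3, limma adjusted p = 0.000350). In MOLM-13 SESN2 (−0.48, limma adjusted p = 0.131) and SESN3 (0.52, limma adjusted p = 0.199) had the opposite signs and did not pass. The interactions of SESN2 (2.63, limma adjusted p = 2.09e-05) and SESN3 (−1.58, limma adjusted p = 0.00588) passed, in opposite directions. FLCN rose in NB4 (0.90, limma adjusted p = 0.000102). LAMTOR2, a subunit of the Ragulator complex, fell in both lines, by 0.66 in MOLM-13 and 0.72 in NB4 (limma adjusted p = 0.0470 and 0.000504). In MOLM-13, SEH1L and MLST8 fell and RRAGB rose, by 0.78 (limma adjusted p = 0.00969).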
